A study of Bos taurus with 9 samples.

Results

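The livers of 3 pair-fed (PF) cows were compared with those of 3 thermoneutral (TN) cows, 6 of the 9 libraries of the series, with both groups taken from the sample labels. All cows were lactating Holstein dairy cows, acclimated at thermoneutrality and then held for the treatment period in 1 of 3 conditions. TN cows stayed at thermoneutrality, PF cows stayed at thermoneutrality as well but were given only as much feed as heat-stressed (HS) cows ate, and HS cows were kept under a daily cycle of heat. The PF and TN groups therefore shared housing temperature and differed in feed intake, so that the comparison asks what lower intake alone does to liver RNA. Each cow gave 1 liver biopsy and 1 poly(A) library, the cows were drawn from a larger trial, and the PF group was on average later in lactation than the TN group, which cannot be told apart from feed intake here. No other treatment or genetic background is given for either group.

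The liver takes up most of the propionate that a ruminant absorbs and turns it into glucose, which the udder needs for lactose. When intake falls below the demand of milk, adipose tissue releases fatty acids, and the liver takes them up, oxidizes them, makes ketone bodies or stores them as triglyceride. Synthesis of new fatty acids in the liver of a fed animal is driven by insulin and nutrient supply through transcription factors such as SREBP-1c, whereas fasting activates PPARα, which induces genes of fatty acid oxidation and the hormone FGF21.

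The 6 libraries held 16874444 to 19517728 counts on genes. Expression is given as TMM-normalized CPM (read counts scaled to a common library size), for the cows of a group in the order of their replicate numbers, and the log2 fold change (FC) of PF over TN is given ± its standard error (SE) from the edgeR fit. All 6 libraries held *ALB*, the hepatocyte's main secreted protein, at 8603 CPM or more. TN 1 stood apart from the other libraries. Its TMM factor was 1.35 against 0.924 to 1.0 in the other 5, and its summed level of 12 hepatocyte markers was 18348 CPM against 60836 and 77884 CPM in the other TN cows and 80517 to 113949 CPM in PF cows. For the gene lists, counts and medians with 1 cow left out are therefore given as a range over the 6 cows, and without TN 1.

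**Figure D1:**
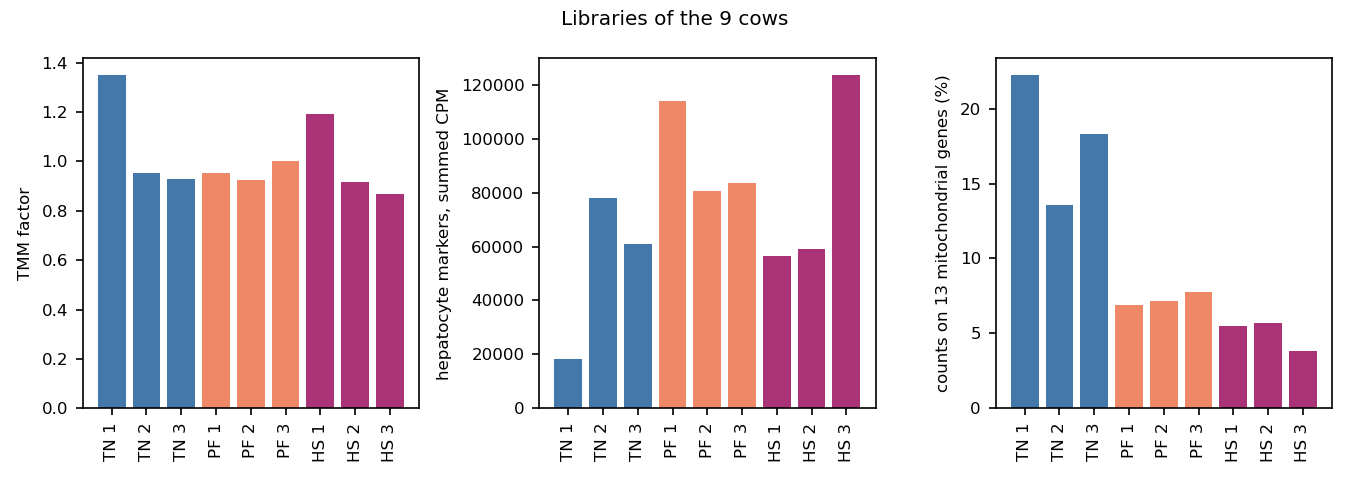
TMM factor, summed CPM of 12 hepatocyte markers and percent of counts on 13 mitochondrial genes, as bars for each of the 9 cows. TN 1 has the highest TMM factor and the lowest hepatocyte sum, and all 3 PF cows lie below all 3 TN cows in the mitochondrial percent.

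Between the PF and TN groups, the quasi-likelihood test of edgeR called 0 of 14580 genes (0.0%) a differentially expressed gene (DEG), which needed a fold change above 1.5 at an FDR below 0.1. The smallest FDR was 0.148 (edgeR). At an unadjusted p under 0.05, 436 genes were higher (2.99%) and 567 were lower (3.89%) in the PF group. limma-voom also called 0 genes, with 1072 at an unadjusted p under 0.05. DESeq2, the tool of the study, called 34 genes higher (0.208% of the 16324 with an FDR) and 57 lower (0.349%). Of these 91 genes, 89 were tested by edgeR, where each had an unadjusted p of 0.0329 or less and the same direction, and in 85 of the 89 the 2 groups of cows did not overlap. DESeq2 picked these genes from the same 6 libraries, so their edgeR p, direction and lack of overlap are not independent evidence. Over all genes tested, every PF cow lay above every TN cow in 1009 genes (6.92%) and below in 924 (6.34%). Each group had 3 cows, and the call of a gene depended on the test. A DEG below is a gene called by DESeq2, and no gene was a DEG by edgeR between PF and TN.

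DESeq2 was also run with each of the 6 cows left out. It called 59 to 342 genes, and without TN 1 it called 44 of the 91. Of the 89 DEGs that edgeR tested, 11 were called in each of the 6 fits, 4 higher and 7 lower in the PF group. The higher genes were *UGP2*, *IDH1*, *CYP3A24* and *GPC3*, and the lower genes were *LPIN1*, *ANGPTL8*, *PFKFB1*, *COX1*, *TSKU*, *FBXO44* and *DOCK6*. The other DEGs that edgeR tested were called in fewer fits, for example in 1 for *SDC1*, *SAA3*, *CLCF1* and *NETO2*. Several of the 11 encode enzymes or regulators of lipid and sugar metabolism, which are described first.

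**Figure D2:**
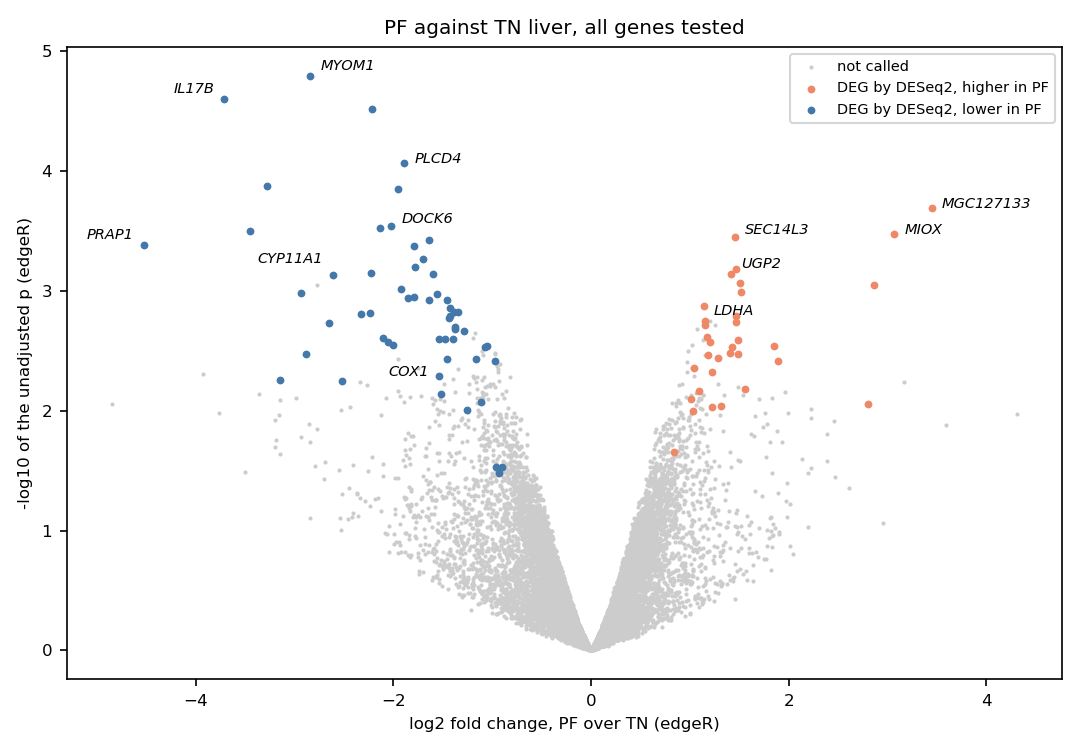
The log2 fold change of PF over TN (x axis) against the -log10 of the unadjusted p (y axis), both from edgeR, for the 14580 genes tested, with the 89 DEGs of DESeq2 that edgeR tested in color. *MYOM1* and *IL17B* are highest on the lower side, and *MGC127133*, *MIOX* and *SEC14L3* on the higher side.

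Members of the list of fatty acid and triglyceride synthesis went both ways, with 11 of 25 above 0 in log2 FC and 3 DEGs. Of the enzymes that build the chain, *ACACA* was 4.72-fold lower in PF cows. *ACACA*, which encodes the carboxylase that makes malonyl-CoA, had 182, 40.3 and 184 CPM in TN cows and 35.3, 36.7 and 15.1 CPM in PF cows, which gave a log2 FC of -2.24 ± 0.54, and was a DEG (DESeq2 FDR 0.00216). TN 1 and TN 3 were high, whereas TN 2 lay just above the highest PF cow. *FASN*, the fatty acid synthase, had 175, 42.7 and 218 CPM in TN cows and 37.9, 56.8 and 9.93 CPM in PF cows, which gave a log2 FC of -2.07 ± 0.64. The pattern of the cows was the same as for *ACACA*, except that PF 2 exceeded TN 2, and *FASN* was not a DEG. *THRSP*, a small nuclear protein that promotes lipogenesis, had 42.5, 22.3 and 70.7 CPM in TN cows and 12.2, 6.39 and 1.48 CPM in PF cows, which gave a log2 FC of -2.77 ± 0.62. Each TN cow had more *THRSP* than each PF cow, with a 95% interval of -4.13 to -1.41, but its DESeq2 FDR was 0.197.

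*SREBF1*, the gene of the lipogenic transcription factor SREBP-1c, had 147, 78.8 and 145 CPM in TN cows and 51, 90.3 and 35.8 CPM in PF cows, which gave a log2 FC of -1.08 ± 0.39, with PF 2 inside the TN range. *ACLY*, which supplies cytosolic acetyl-CoA, had 22, 22 and 48.2 CPM in TN cows and 18.6, 20.1 and 13.9 CPM in PF cows, which gave a log2 FC of -0.82 ± 0.33, and the highest level was that of TN 3. *SCD*, the desaturase that makes oleate, was spread widely within both groups, from 12.3 CPM in PF 3 to 703 CPM in PF 2 and from 153 to 528 CPM in TN cows, and no difference was detectable. PF 3 had the lowest level of all 6 cows for *ACACA*, *FASN*, *THRSP*, *SREBF1*, *ACLY* and *SCD*.

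Genes that act on finished fatty acids went in both directions. *LPIN1*, the phosphatidate phosphatase that makes diacylglycerol and also acts as a transcriptional co-regulator, had 105, 167 and 61.2 CPM in TN cows and 39.4, 32.1 and 42.1 CPM in PF cows, which gave a log2 FC of -1.56 ± 0.36, with no overlap (DESeq2 FDR 0.00683). *DGAT2*, the acyltransferase of the last step of triglyceride synthesis, had 9.61, 30.0 and 23.5 CPM in TN cows and 51.4, 30.4 and 55.2 CPM in PF cows, which gave a log2 FC of 1.12 ± 0.39, the opposite direction. TN 2 and PF 2 were nearly equal in *DGAT2*, which was not a DEG. *IDH1*, the cytosolic enzyme that makes NADPH from isocitrate, had 68.5, 155 and 132 CPM in TN cows and 287, 258 and 321 CPM in PF cows, which gave a log2 FC of 1.28 ± 0.35, and every PF cow exceeded every TN cow (DESeq2 FDR 0.0213). *ANGPTL8*, a feeding-induced liver hormone that restrains lipoprotein lipase in muscle, had 349, 296 and 340.4 CPM in TN cows and 163, 129 and 76 CPM in PF cows, which gave a log2 FC of -1.43 ± 0.35 (DESeq2 FDR 0.00381). The TN cows were close together and each was above each PF cow. In the ARS-UCD2.0 annotation *ANGPTL8* overlaps *DOCK6*, which had 179, 58.7 and 154 CPM in TN cows and 29.3, 34.2 and 34.2 CPM in PF cows, which gave a log2 FC of -2.02 ± 0.39, so the reads of these 2 DEGs may not be independent.

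Of the 25 genes of fatty acid and triglyceride synthesis tested, 2 were higher and 6 lower in the PF group at an unadjusted p under 0.05 (edgeR), or 1 to 3 and 4 to 7 with 1 cow left out (2 and 6 without TN 1). For the 25 together, the median log2 FC was -0.22, and with 1 cow left out it ranged from -0.59 (without PF 2) to 0.15 (without PF 3), and was -0.22 without TN 1. The shares of the list at this p were 8.0% higher and 24% lower, beside 2.99% and 3.89% of all genes, whose median was -0.01, or 0.01 without TN 1. The 6 lower genes were *THRSP*, *ACACA*, *FASN*, *LPIN1*, *SREBF1* and *ACLY*, and the 2 higher ones were *IDH1* and *DGAT2*. Leaving out TN 1 gave log2 FCs of -1.94 for *ACACA*, -1.89 for *FASN* and -2.80 for *THRSP*.

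Genes of fatty acid oxidation lay mostly on the higher side. *ACSL1*, which activates fatty acids to acyl-CoA, had 98.3, 134 and 162 CPM in TN cows and 294, 282 and 221 CPM in PF cows, which gave a log2 FC of 1.01 ± 0.31, with no overlap, and was the DEG of this list (DESeq2 FDR 0.0669), called in 3 of the 6 fits with 1 cow left out and not without TN 1. *ACADM*, the medium-chain acyl-CoA dehydrogenase, had 117, 243 and 207 CPM in TN cows and 386, 308 and 343 CPM in PF cows, which gave a log2 FC of 0.87 ± 0.34. *HADHA*, the α subunit of the mitochondrial trifunctional protein, had 76.7, 168 and 145 CPM in TN cows and 205, 209.8 and 271 CPM in PF cows, which gave a log2 FC of 0.81 ± 0.34. *SLC25A20*, the carnitine carrier of the inner membrane, had 45.6, 91.7 and 94.9 CPM in TN cows and 126, 131 and 144 CPM in PF cows, which gave a log2 FC of 0.78 ± 0.32. Each PF cow exceeded each TN cow in all 4 genes, and TN 1 was the lowest cow in each. *FGF21*, the hormone that the liver secretes in fasting, had 0, 0.186 and 3.22 CPM in TN cows and 1.41, 28.6 and 10.3 CPM in PF cows, which gave a log2 FC of 3.59 ± 1.22. The PF cows differed from each other by far more than the TN cows, PF 1 lay below TN 3, and a count of 0 in TN 1 allows up to 0.132 CPM, so its fold change depends on few counts.

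Of the 33 genes of fatty acid oxidation and ketogenesis tested, 6 were higher and 0 lower in the PF group at an unadjusted p under 0.05 (edgeR), or 3 to 8 and 0 with 1 cow left out (3 and 0 without TN 1). With all 6 cows the shares were 18.2% higher and 0% lower, beside 2.99% and 3.89% of all genes. For the 33 together, the median log2 FC was 0.55, and with 1 cow left out it ranged from 0.27 (without TN 1) to 0.78 (without TN 2). In 32 of the 33 the log2 FC was above 0, beside 48.8% of all genes. The share above 0 was also 91.7% for the hepatocyte markers, 92.6% for gluconeogenesis and 90.9% for the nuclear-encoded respiratory chain. Regulators of the entry of fuel into mitochondria differed by less than the spread of the cows. *CPT1A*, the carnitine acyltransferase that admits long-chain fatty acids to mitochondria, had 69, 141 and 159 CPM in TN cows and 129, 135 and 192 CPM in PF cows, which gave a log2 FC of 0.30 ± 0.35. *PDK4*, which shuts off pyruvate dehydrogenase, had a log2 FC of 0.13 with a 95% interval of -0.65 to 0.91.

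DEGs of sugar metabolism included enzymes of UDP-glucose, inositol, lactate and fructose 2,6-bisphosphate. *UGP2*, which makes UDP-glucose for glycogen and glucuronides, had 32.9, 62 and 50.4 CPM in TN cows and 114, 118 and 157 CPM in PF cows, which gave a log2 FC of 1.41 ± 0.31 and was a DEG (DESeq2 FDR 0.00238). The lowest PF cow had 114 CPM and the highest TN cow 62 CPM. *MIOX*, myo-inositol oxygenase, had 1.23, 1.86 and 4.36 CPM in TN cows and 9.11, 12.6 and 40.6 CPM in PF cows, which gave a log2 FC of 3.07 ± 0.61 (DESeq2 FDR 0.00011). The TN cows were at 4.36 CPM or less and PF 3 was the highest cow. *LDHA*, the lactate dehydrogenase subunit, had 21.5, 37.9 and 34.8 CPM in TN cows and 65.5, 67.8 and 75.2 CPM in PF cows, which gave a log2 FC of 1.14 ± 0.27 (DESeq2 FDR 0.0349), with PF cows close together and all above the TN cows.

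*PFKFB1*, the liver enzyme that sets the level of fructose 2,6-bisphosphate and thereby the balance of glycolysis and gluconeogenesis, had 343, 207 and 289 CPM in TN cows and 107, 94.7 and 131 CPM in PF cows, which gave a log2 FC of -1.35 ± 0.32 (DESeq2 FDR 0.00304). Every PF cow was below every TN cow. Enzymes that split disaccharides and related sugars went both ways. *TREH*, trehalase, had 51.1, 103 and 75.2 CPM in TN cows and 177, 187 and 166 CPM in PF cows, which gave a log2 FC of 1.2 ± 0.32. *MGAM*, maltase-glucoamylase, had 107, 79.5 and 107 CPM in TN cows and 48.3, 35.3 and 56.8 CPM in PF cows, which gave a log2 FC of -1.07 ± 0.29. Both were DEGs without overlap. *HK3*, a hexokinase found mostly in myeloid cells, had 8.78, 13.9 and 15.4 CPM in TN cows and 3.47, 5.16 and 5.99 CPM in PF cows, which gave a log2 FC of -1.39 ± 0.33, and was a DEG as well. *GFPT1*, the entry enzyme of hexosamine synthesis, had 20.8, 24.6 and 21.4 CPM in TN cows and 51.5, 31.3 and 25.4 CPM in PF cows, which gave a log2 FC of 0.69 ± 0.29, and most of the difference came from PF 1.

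Of the 27 genes of gluconeogenesis and propionate entry tested, 2 were higher and 0 lower in the PF group at an unadjusted p under 0.05 (edgeR), or 1 to 5 and 0 with 1 cow left out (2 and 0 without TN 1). With all 6 cows the shares were 7.41% higher and 0% lower, beside 2.99% and 3.89% of all genes. For the 27 together, the median log2 FC was 0.45, and with 1 cow left out it ranged from 0.13 (without TN 1) to 0.63 (without TN 2). The 2 at this p were *LDHA* and *FBP1*, the gene of fructose-1,6-bisphosphatase, which had 74.9, 319.5 and 246 CPM in TN cows and 489, 394 and 533 CPM in PF cows, which gave a log2 FC of 1.14 ± 0.46. TN 1 was the lowest cow in *FBP1* and the groups did not overlap. *PCK1*, the cytosolic carboxykinase that commits carbon to glucose, had 1050.1, 1247 and 1321 CPM in TN cows and 1003, 1146 and 1793 CPM in PF cows, which gave a log2 FC of 0.11 ± 0.36, a difference within the spread of the cows (95% interval -0.68 to 0.91). *G6PC*, the phosphatase that releases free glucose, had 297, 472 and 369.7 CPM in TN cows and 365, 265 and 411 CPM in PF cows, which gave a log2 FC of -0.14 ± 0.33. *PC*, pyruvate carboxylase, had 142, 271 and 252 CPM in TN cows and 293, 267 and 549 CPM in PF cows, which gave a log2 FC of 0.73 ± 0.39. The cows of the groups overlapped in all 3 genes. Of the 31 genes of UDP-glucose, glycogen and inositol metabolism tested, 3 were higher and 0 lower in the PF group at an unadjusted p under 0.05 (edgeR), or 2 to 5 and 0 to 1 with 1 cow left out (2 and 0 without TN 1). With all 6 cows the shares were 9.68% higher and 0% lower, beside 2.99% and 3.89% of all genes. For the 31 together, the median log2 FC was 0.30, and with 1 cow left out it ranged from 0.20 (without TN 1) to 0.35 (without TN 3). The 3 were *MIOX*, *UGP2* and *GFPT1*.

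**Figure D3:**
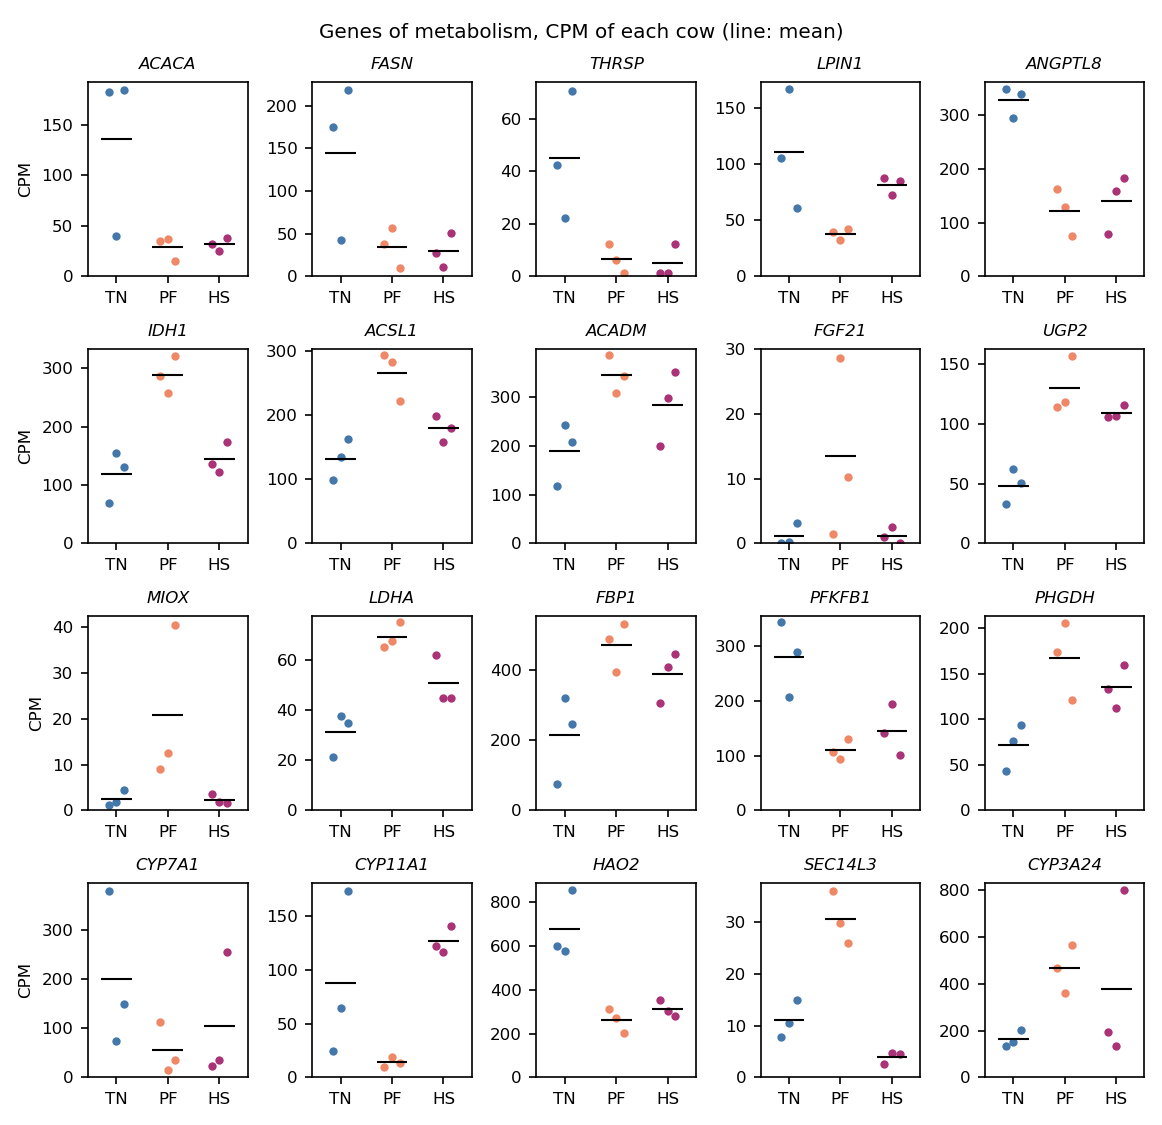
CPM of each cow (points, replicates 1 to 3 from left to right) and the group mean (line) for 20 genes of lipid, sugar, amino acid and steroid metabolism, each panel with its own axis from 0. TN and PF points are apart for *UGP2*, *LDHA*, *ANGPTL8*, *PFKFB1*, *HAO2* and *IDH1*, and HS cows are shown for their level only.

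The 13 protein-coding genes of mitochondrial DNA, which encode core subunits of respiratory complexes and of ATP synthase, took 22.2%, 13.6% and 18.3% of the counts in TN cows and 6.9%, 7.13% and 7.79% in PF cows. Means were 18% ± 4.35 (SD, n = 3 cows) and 7.28% ± 0.461. Every PF cow was below every TN cow, with a difference in means of -10.8 percentage points (exact two-sided permutation test, p = 0.1, the smallest p that 3 against 3 cows can give). Without TN 1 the difference was -8.67 percentage points. For these depths the 95% Wilson interval of a share was narrow, as in TN 1 with 22.2% to 22.3%, and covers counting error only.

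*COX1*, the catalytic subunit of cytochrome c oxidase, had 78791, 66333 and 107158 CPM in TN cows and 29557, 30960.0 and 26882 CPM in PF cows, which gave a log2 FC of -1.54 ± 0.45 and a 95% interval of -2.51 to -0.56 (DESeq2 FDR 0.0000689). It showed the largest log2 difference of the 13. *COX2*, another catalytic subunit, had 10759, 8526 and 13340.2 CPM in TN cows and 5306, 4915 and 3564 CPM in PF cows, which gave a log2 FC of -1.25 ± 0.41 (DESeq2 FDR 0.00748). For both, the lowest TN cow was above the highest PF cow. *CYTB*, of complex III, had 12185, 10076 and 12102 CPM in TN cows and 5318, 5912 and 6915 CPM in PF cows, which gave a log2 FC of -0.93 ± 0.38. The complex I subunits *ND1* and *ND2* had log2 FCs of -0.96 and -0.90, and these 5 genes were DEGs by DESeq2. *ATP8*, a subunit of ATP synthase, had 57.7, 38.7 and 50.7 CPM in TN cows and 33.8, 18 and 22.9 CPM in PF cows, which gave a log2 FC of -0.99 ± 0.29, with no overlap. *ND3*, another complex I subunit, had the smallest difference, with 5349, 6006 and 3692 CPM in TN cows and 3684, 3241 and 4308 CPM in PF cows, which gave a log2 FC of -0.43 ± 0.38, and PF 3 above TN 3.

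All 13 genes had a log2 FC below 0, from -1.54 for *COX1* to -0.43 for *ND3*. At an unadjusted p under 0.05, 8 of the 13 were lower, or 2 to 12 with 1 cow left out (12 without TN 1). The share lower was 61.5%, beside 3.89% of all genes. For the 13 together, the median log2 FC was -0.896. With 1 cow left out it ranged from -0.996 (without TN 2) to -0.831 (without TN 3), and was -0.840 without TN 1. In 11 of the 13 the groups did not overlap (84.6%, beside 6.34%). The edgeR FDR of the 13 ranged from 0.693 to 0.774, that of *ATP8* being 0.693 and that of *ND3* 0.774. Genes of mitochondrial DNA overlap in part (*ATP6* and *ATP8*, *ND4* and *ND4L*, *ND5* and *ND6*), so they are not independent of each other, nor are genes that share 1 transcript. Of the 77 nuclear-encoded genes of the respiratory chain tested, 3 were higher and 0 lower in the PF group at an unadjusted p under 0.05 (edgeR), or 0 to 5 and 0 with 1 cow left out (0 and 0 without TN 1). The share higher was 3.9%, near the 2.99% of all genes. For the 77 together, the median log2 FC was 0.28, and with 1 cow left out it ranged from 0.04 (without TN 1) to 0.49 (without TN 2). Their median lay on the other side of 0 from the mitochondrial ones with all 6 cows and near 0 without TN 1. The 3 at this p were *ATP5MC2*, of ATP synthase, *SDHC*, of complex II, with a log2 FC of 0.95 ± 0.38, and also *COX7A2L*, with a log2 FC of 0.67 ± 0.30.

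**Figure D4:**
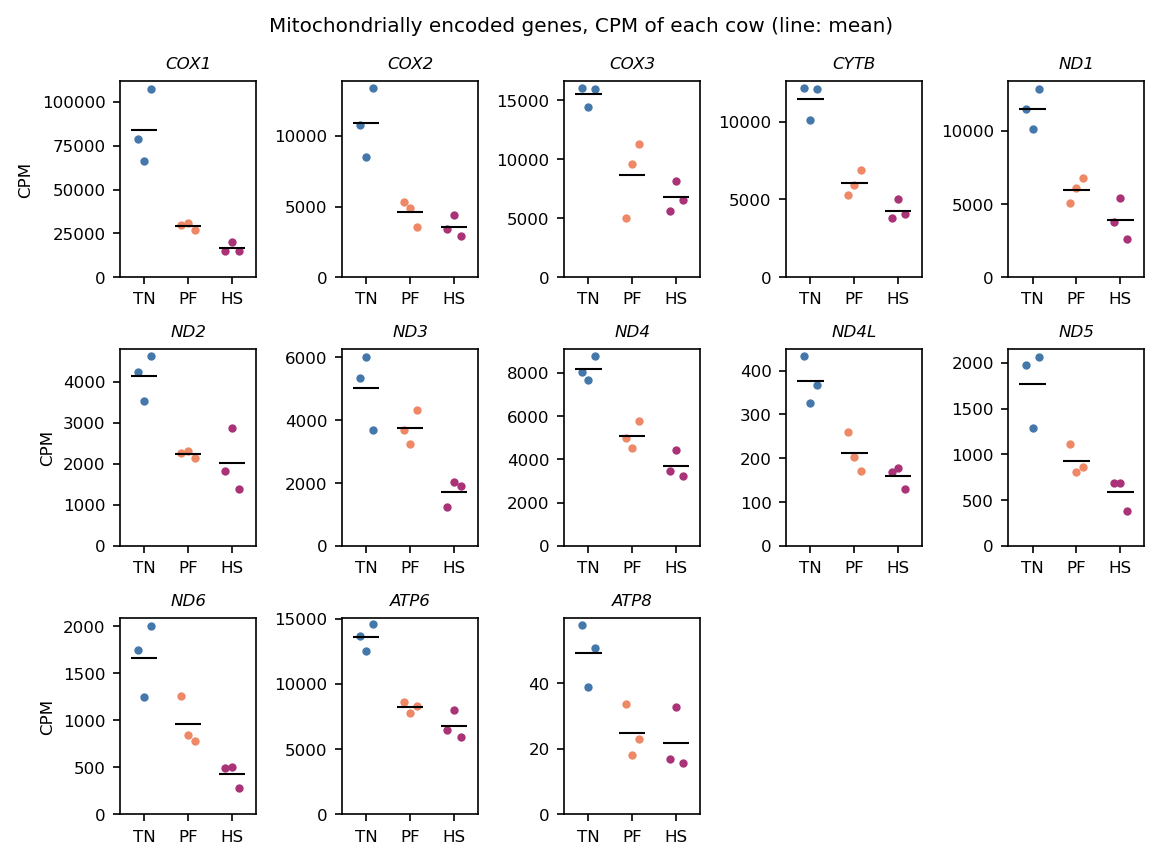
CPM of each cow (points, replicates 1 to 3 from left to right) and the group mean (line) for the 13 mitochondrially encoded genes in TN, PF and HS cows, each panel with its own axis from 0. PF points are below TN points in 11 of the 13 panels, and *COX1* has the largest log2 difference.

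In the list of serine, folate and methionine metabolism 1 gene was a DEG. It was *PHGDH*, higher in PF cows, which takes 3-phosphoglycerate into serine synthesis and had 43.1, 76.6 and 94 CPM in TN cows and 174, 206 and 121 CPM in PF cows, which gave a log2 FC of 1.22 ± 0.35 (DESeq2 FDR 0.053). Each PF cow exceeded each TN cow. *SHMT2* and *ALDH1L2*, mitochondrial enzymes of one-carbon metabolism, had log2 FCs of 0.91 ± 0.30 and 0.88 ± 0.29 without overlap. *PSAT1*, the next enzyme after *PHGDH*, had 127, 278 and 229 CPM in TN cows and 343, 273 and 200.2 CPM in PF cows, which gave a log2 FC of 0.36 ± 0.37, with the groups mixed. *GLDC*, the decarboxylase of the glycine cleavage system, had 209, 85.9 and 182 CPM in TN cows and 89.2, 54.2 and 61.7 CPM in PF cows, which gave a log2 FC of -1.23 ± 0.38, and PF 1 exceeded TN 2. *GLDC* was not a DEG. Of the 37 genes of serine, folate and methionine metabolism tested, 5 were higher and 3 lower in the PF group at an unadjusted p under 0.05 (edgeR), or 3 to 5 and 1 to 4 with 1 cow left out (4 and 1 without TN 1). With all 6 cows the shares were 13.5% higher and 8.11% lower, beside 2.99% and 3.89% of all genes. For the 37 together, the median log2 FC was 0.15, and with 1 cow left out it ranged from 0.10 (without TN 1) to 0.24 (without TN 3).

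*ASL*, the argininosuccinate lyase of the urea cycle, had 887, 808 and 914 CPM in TN cows and 555, 468 and 499 CPM in PF cows, which gave a log2 FC of -0.79 ± 0.32, so that every PF cow was below every TN cow by a wide margin, yet its FDR was 0.708 (edgeR). *RHBG*, an ammonia transporter of liver, had 87.6, 49.7 and 62.2 CPM in TN cows and 25.5, 48.6 and 40.5 CPM in PF cows, which gave a log2 FC of -0.82 ± 0.32, with PF 2 just below TN 2. *CPS1* and *OTC*, which start the cycle in mitochondria, had log2 FCs of 0.47 ± 0.47 and 0.53 ± 0.41, within the spread of the cows. Of the 13 genes of the urea cycle and ammonia handling tested, 0 were higher and 3 lower in the PF group at an unadjusted p under 0.05 (edgeR), or 0 and 1 to 2 with 1 cow left out (0 and 2 without TN 1). With all 6 cows the shares were 0% higher and 23.1% lower, beside 2.99% and 3.89% of all genes. For the 13 together, the median log2 FC was -0.45, and with 1 cow left out it ranged from -0.51 (without TN 2) to -0.18 (without PF 1), and was -0.26 without TN 1. In amino acid breakdown, *ACMSD*, a decarboxylase of tryptophan degradation, had 62, 90.3 and 60.3 CPM in TN cows and 43.8, 37.3 and 20.2 CPM in PF cows, which gave a log2 FC of -1.08 ± 0.32. *ALDH6A1*, of valine degradation, had 178, 297 and 241 CPM in TN cows and 561, 326 and 381 CPM in PF cows, which gave a log2 FC of 0.82 ± 0.35. The groups did not overlap in either gene, and neither was a DEG. Of the 44 genes of amino acid catabolism tested, 2 were higher and 1 lower in the PF group at an unadjusted p under 0.05 (edgeR), or 0 to 5 and 1 to 3 with 1 cow left out (0 and 1 without TN 1). The shares were 4.55% higher and 2.27% lower, near the 2.99% and 3.89% of all genes. For the 44 together, the median log2 FC was 0.15, and with 1 cow left out it ranged from -0.04 (without TN 1) to 0.30 (without TN 2).

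Bile acid genes were mostly within the spread of the cows. *CYP7A1*, the rate-limiting hydroxylase of bile acid synthesis, had 378, 73.6 and 148 CPM in TN cows and 112, 15.6 and 36.3 CPM in PF cows, which gave a log2 FC of -1.89 ± 0.71, or a log2 FC of -1.02 without TN 1, which was the highest cow. *KLB*, the co-receptor through which FGF21 and FGF19 act, had 27.3, 24.5 and 27.2 CPM in TN cows and 55.2, 51.8 and 28.6 CPM in PF cows, which gave a log2 FC of 0.77 ± 0.28. Of the 23 genes of bile acid synthesis and transport tested, 1 was higher and 2 lower in the PF group at an unadjusted p under 0.05 (edgeR), or 0 to 1 and 1 to 2 with 1 cow left out (1 and 2 without TN 1). With all 6 cows the shares were 4.35% higher and 8.70% lower, beside 2.99% and 3.89% of all genes. For the 23 together, the median log2 FC was -0.07, and with 1 cow left out it ranged from -0.16 (without TN 1) to 0.05 (without TN 2).

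Steroid and detoxification enzymes included several of the stronger differences. *CYP11A1*, the mitochondrial side-chain cleavage enzyme that makes pregnenolone, had 24.8, 64.5 and 173 CPM in TN cows and 9.75, 19.3 and 13.9 CPM in PF cows, which gave a log2 FC of -2.61 ± 0.57 (DESeq2 FDR 0.000251), and the TN cows themselves were spread over a wide range. *HSDL2*, a peroxisomal short-chain dehydrogenase-like protein, had 46.3, 63.9 and 72.4 CPM in TN cows and 132, 98 and 147 CPM in PF cows, which gave a log2 FC of 1.04 ± 0.29 (DESeq2 FDR 0.0653). *HAO2*, a peroxisomal oxidase of 2-hydroxy acids, had 599, 574 and 856 CPM in TN cows and 310.1, 271 and 203 CPM in PF cows, which gave a log2 FC of -1.38 ± 0.35 (DESeq2 FDR 0.00185). In each of the 3 the cows of the groups did not overlap. *CYP3A24*, a cytochrome P450 of drug and steroid oxidation, had 136, 150.3 and 204 CPM in TN cows and 467, 363 and 567 CPM in PF cows, which gave a log2 FC of 1.5 ± 0.34. The conjugating enzymes *SULT1C4* and *UGT2B10* had log2 FCs of 1.40 ± 0.38 and 1.49 ± 0.40, and *SELENBP1*, a methanethiol oxidase that binds selenium, had 59, 95.9 and 120.2 CPM in TN cows and 199.8, 162 and 225 CPM in PF cows, which gave a log2 FC of 1.09 ± 0.33. These 4 were DEGs higher in PF cows. They belong to families of similar sequence in the case of *CYP3A24*, *SULT1C4* and *UGT2B10*, and how reads shared between copies were counted is not stated.

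Of the 24 genes of steroid and retinoid metabolism tested, 6 were higher and 1 lower in the PF group at an unadjusted p under 0.05 (edgeR), or 2 to 5 and 1 to 2 with 1 cow left out (4 and 1 without TN 1). With all 6 cows the shares were 25% higher and 4.17% lower, beside 2.99% and 3.89% of all genes. For the 24 together, the median log2 FC was 0.20, and with 1 cow left out it ranged from 0.12 (without TN 1) to 0.46 (without TN 2). Of the 58 xenobiotic and redox enzymes tested, 8 were higher and 1 lower in the PF group at an unadjusted p under 0.05 (edgeR), or 5 to 9 and 1 with 1 cow left out (7 and 1 without TN 1). With all 6 cows the shares were 13.8% higher and 1.72% lower, beside 2.99% and 3.89% of all genes. For the 58 together, the median log2 FC was 0.28, and with 1 cow left out it ranged from 0.10 (without TN 1) to 0.42 (without TN 2). Among all genes without overlap, *SEC14L3*, a lipid-binding protein of the SEC14 family, had a p among the smallest on the higher side, with 7.9, 10.5 and 15 CPM in TN cows and 36, 29.8 and 26 CPM in PF cows, which gave a log2 FC of 1.46 ± 0.29 and a 95% interval of 0.82 to 2.09. The lowest PF cow was well above the highest TN cow.

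Hormone axes showed few differences. *GHR*, the growth hormone receptor, had 38, 24.9 and 19.9 CPM in TN cows and 45.7, 35.1 and 36.1 CPM in PF cows, which gave a log2 FC of 0.48 ± 0.29. *IGF1*, the growth factor that it induces, had 42.3, 40.4 and 33.1 CPM in TN cows and 69.3, 47.3 and 40.9 CPM in PF cows, which gave a log2 FC of 0.43 ± 0.27. The groups overlapped in both genes. *IGFALS*, which carries IGF-1 in plasma, had 49.9, 97.2 and 73.5 CPM in TN cows and 115, 113 and 136 CPM in PF cows, which gave a log2 FC of 0.72 ± 0.30. *STAT5A*, which relays the growth hormone signal, had 14.4, 17.2 and 11.6 CPM in TN cows and 8.69, 6.62 and 9.72 CPM in PF cows, which gave a log2 FC of -0.79 ± 0.28. The groups did not overlap in these 2 genes. *IGFBP1*, an insulin-suppressed binding protein, had a log2 FC of -0.64 ± 0.49 and that of *IGFBP2* was 0.74 ± 0.56. Of the 20 genes of the growth hormone and IGF axis tested, 1 was higher and 1 lower in the PF group at an unadjusted p under 0.05 (edgeR), or 0 to 3 and 0 to 2 with 1 cow left out (3 and 2 without TN 1). The shares were 5% higher and 5% lower, beside 2.99% and 3.89% of all genes. For the 20 together, the median log2 FC was 0.13, and with 1 cow left out it ranged from 0.08 (without TN 3) to 0.31 (without TN 1). *GRB14*, an adaptor that restrains the insulin receptor, had 119, 77.5 and 90.2 CPM in TN cows and 51.5, 60.7 and 55.7 CPM in PF cows, which gave a log2 FC of -0.79 ± 0.27, with no overlap. Of the 30 genes of insulin and glucagon signaling tested, 0 were higher and 1 lower in the PF group at an unadjusted p under 0.05 (edgeR), or 0 to 1 and 1 with 1 cow left out (0 and 1 without TN 1). The share lower was 3.33%, below the 3.89% of all genes. For the 30 together, the median log2 FC was 0.11, and with 1 cow left out it ranged from 0.04 (without PF 1) to 0.13 (without PF 2), and was 0.07 without TN 1. The gene at this p was *GRB14*, which was not a DEG. *INSR*, the receptor itself, had 48.1, 55.9 and 47.4 CPM in TN cows and 56.9, 69.4 and 84.5 CPM in PF cows, which gave a log2 FC of 0.47 ± 0.26. *DIO1*, the deiodinase that makes active thyroid hormone, had 274, 267 and 463 CPM in TN cows and 499.6, 430.1 and 344 CPM in PF cows, which gave a log2 FC of 0.34 ± 0.35. Of the 13 genes of thyroid hormone action and deiodination tested, 0 were higher and 1 lower in the PF group at an unadjusted p under 0.05 (edgeR), or 0 to 1 and 1 with 1 cow left out (1 and 1 without TN 1). With all 6 cows the shares were 0% higher and 7.69% lower, beside 2.99% and 3.89% of all genes. For the 13 together, the median log2 FC was 0.31, and with 1 cow left out it ranged from -0.02 (without TN 3) to 0.20 (without PF 2), and was 0.19 without TN 1. The lower gene was *THRSP*, a target of that hormone.

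Clock genes lay on both sides of 0, and none was a DEG. *ARNTL*, the activator of the clock, had 11.8, 7.55 and 9.37 CPM in TN cows and 14.3, 16.2 and 22.2 CPM in PF cows, which gave a log2 FC of 0.86 ± 0.29. *CRY1*, a repressor that peaks late, had 7.33, 8.11 and 7.52 CPM in TN cows and 11.6, 12.9 and 12.7 CPM in PF cows, which gave a log2 FC of 0.69 ± 0.26. *PER3* and *PER1*, period repressors, had log2 FCs of -1.19 ± 0.35 and -0.97 ± 0.41, with overlap in *PER1*. *NR1D1*, the repressor REV-ERBα, had 10.4, 13.3 and 5.79 CPM in TN cows and 4.64, 2.19 and 6.65 CPM in PF cows, which gave a log2 FC of -1.14 ± 0.44, with PF 3 above TN 3. Of the 19 clock genes tested, 2 were higher and 5 lower in the PF group at an unadjusted p under 0.05 (edgeR), or 1 to 2 and 1 to 6 with 1 cow left out (2 and 1 without TN 1). With all 6 cows the shares were 10.5% higher and 26.3% lower, beside 2.99% and 3.89% of all genes. For the 19 together, the median log2 FC was -0.35, and with 1 cow left out it ranged from -0.45 (without PF 3) to -0.30 (without PF 2), and was -0.35 without TN 1. The hour of the biopsies is not given in the sources used here. Of the 20 genes of the glucocorticoid response tested, 2 were higher and 1 lower in the PF group at an unadjusted p under 0.05 (edgeR), or 1 to 4 and 0 to 2 with 1 cow left out (2 and 2 without TN 1). With all 6 cows the shares were 10% higher and 5% lower, beside 2.99% and 3.89% of all genes. For the 20 together, the median log2 FC was 0.01, and with 1 cow left out it ranged from -0.13 (without PF 2) to 0.12 (without TN 1). The 2 higher ones were metallothioneins, which bind zinc. *MT1E* had 3.25, 51.7 and 20.2 CPM in TN cows and 38.1, 179 and 459.7 CPM in PF cows, which gave a log2 FC of 3.17 ± 0.93. *MT2A* had 16.5, 185 and 56.7 CPM in TN cows and 91.4, 389 and 439 CPM in PF cows, which gave a log2 FC of 1.83 ± 0.75. In both, PF 1 lay inside the TN range, and neither was a DEG.

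Secreted signals included DEGs in both directions. *IL17B*, a cytokine of the IL-17 family, had 10.1, 4.09 and 4.48 CPM in TN cows and 0.411, 0.505 and 0.512 CPM in PF cows, which gave a log2 FC of -3.71 ± 0.55, with a 95% interval of -4.91 to -2.51 and an FDR of 0.148 (edgeR). *TNFSF9*, the ligand of 4-1BB, had 14.5, 20.9 and 41.5 CPM in TN cows and 4.23, 8.64 and 4.66 CPM in PF cows, which gave a log2 FC of -2.14 ± 0.42. *CD70*, the ligand of CD27, had 4.7, 1.24 and 6.03 CPM in TN cows and 0.117, 0.785 and 0.716 CPM in PF cows, which gave a log2 FC of -2.88 ± 0.78. *CLCF1*, a cytokine of the IL-6 family, had 12, 4.83 and 11.9 CPM in TN cows and 2.41, 2.47 and 3.48 CPM in PF cows, which gave a log2 FC of -1.79 ± 0.42. All 4 were DEGs, low in the PF group without overlap, and *IL17B* and *CD70* were near the limit of detection there, since a count of 0 allows 0.154 to 0.176 CPM in PF cows. *INHBE*, which encodes the liver's activin E subunit, had 12.1, 5.63 and 11.2 CPM in TN cows and 22.3, 19.5 and 38.9 CPM in PF cows, which gave a log2 FC of 1.46 ± 0.36 and was a DEG on the higher side. The related subunits *INHBC* and *INHBA* had log2 FCs of 1.65 ± 0.55 and 1.75 ± 0.57. Neither was a DEG, and in *INHBA* PF 1 (2.47 CPM) lay below TN 3 (2.98 CPM). *TNF* had 3.56, 4.64 and 2.63 CPM in TN cows and 0.352, 1.96 and 1.48 CPM in PF cows, which gave a log2 FC of -1.52 ± 0.63. Of the 60 cytokines, chemokines and receptors tested, 3 were higher and 4 lower in the PF group at an unadjusted p under 0.05 (edgeR), or 3 to 5 and 1 to 7 with 1 cow left out (4 and 7 without TN 1). With all 6 cows the shares were 5% higher and 6.67% lower, beside 2.99% and 3.89% of all genes. For the 60 together, the median log2 FC was -0.22, and with 1 cow left out it ranged from -0.33 (without TN 3) to 0.07 (without TN 2), and was -0.27 without TN 1. *TNFSF9*, *CD70* and *CLCF1* are not members of that list and are not in its count, and the 4 lower members were *IL17B*, *TNF*, *CXCL10* and *CSF1R*. Of the 25 interferon-stimulated genes tested, 0 were higher and 0 lower in the PF group at an unadjusted p under 0.05 (edgeR), or 0 to 4 and 0 to 4 with 1 cow left out (0 and 2 without TN 1). For the 25 together, the median log2 FC was -0.18, and with 1 cow left out it ranged from -0.36 (without TN 1) to 0.38 (without TN 2). Of the 11 genes of MHC class II presentation tested, 0 were higher and 0 lower in the PF group at an unadjusted p under 0.05 (edgeR), or 0 and 0 to 3 with 1 cow left out (0 and 1 without TN 1). For the 11 together, the median log2 FC was -0.45, and with 1 cow left out it ranged from -0.68 (without TN 3) to -0.04 (without TN 2), and was -0.56 without TN 1. Neither edgeR nor DESeq2 called any gene of these 2 lists.

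Plasma proteins of hepatocytes lay mostly on the higher side with all 6 cows. *SAA3*, an acute phase serum amyloid, had 6.01, 5.14 and 9.85 CPM in TN cows and 13, 27.1 and 20.4 CPM in PF cows, which gave a log2 FC of 1.52 ± 0.35 (DESeq2 FDR 0.0349). *CD14*, the co-receptor of endotoxin, had 55.3, 147 and 146 CPM in TN cows and 247, 329 and 239.8 CPM in PF cows, which gave a log2 FC of 1.22 ± 0.39 (DESeq2 FDR 0.0959), and *LBP*, which passes endotoxin to it, had 13.2, 50.5 and 93.7 CPM in TN cows and 97.8, 287 and 143 CPM in PF cows, which gave a log2 FC of 1.74 ± 0.60. The groups did not overlap in these 3 genes. *HAMP*, hepcidin, the hormone that limits iron uptake, had 109, 100.2 and 52 CPM in TN cows and 71.5, 686 and 146 CPM in PF cows, which gave a log2 FC of 1.77 ± 0.68, and PF 2 alone was far above the rest. The study reports that *SAA3* and *HAMP* did not differ significantly between PF and TN cows, whereas *SAA3* was a DEG here. Of the 23 positive acute phase proteins tested, 5 were higher and 0 lower in the PF group at an unadjusted p under 0.05 (edgeR), or 2 to 5 and 0 with 1 cow left out (5 and 0 without TN 1). With all 6 cows the shares were 21.7% higher and 0% lower, beside 2.99% and 3.89% of all genes. For the 23 together, the median log2 FC was 0.64, and with 1 cow left out it ranged from 0.30 (without TN 1) to 1.08 (without TN 3). Of the 20 negative acute phase proteins and plasma carriers tested, 1 was higher and 0 lower in the PF group at an unadjusted p under 0.05 (edgeR), or 0 to 3 and 0 with 1 cow left out (3 and 0 without TN 1). The share higher was 5%, beside 2.99% of all genes. For the 20 together, the median log2 FC was 0.63, and with 1 cow left out it ranged from 0.26 (without TN 1) to 0.96 (without TN 2). Both medians moved by more than 1.5 times without TN 1, whose hepatocyte marker sum was the lowest. *ALB*, a carrier of the second list, had 8603, 46822 and 36111 CPM in TN cows and 81892, 49476 and 54659 CPM in PF cows, which gave a log2 FC of 1.02 ± 0.59. Outside the lists, *AGT*, angiotensinogen, had 61.7, 109.9 and 60.5 CPM in TN cows and 190.0, 155 and 183 CPM in PF cows, which gave a log2 FC of 1.18 ± 0.32. *APOA5*, an apolipoprotein that promotes triglyceride clearance, had 164, 364 and 289 CPM in TN cows and 720.5, 399 and 914 CPM in PF cows, which gave a log2 FC of 1.31 ± 0.42. Both were DEGs without overlap.

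Chaperones of the endoplasmic reticulum (ER) had log2 FCs of one sign. *DNAJB9*, a co-chaperone of the endoplasmic reticulum, had 16.2, 40.3 and 40.6 CPM in TN cows and 82.8, 118 and 60.2 CPM in PF cows, which gave a log2 FC of 1.42 ± 0.38 (DESeq2 FDR 0.0419). *PDIA4*, a disulfide isomerase, had 45.2, 114 and 107 CPM in TN cows and 171, 205 and 141 CPM in PF cows, which gave a log2 FC of 0.95 ± 0.37. *HSPA5*, the main chaperone of that compartment, had 123, 174 and 231 CPM in TN cows and 207, 387 and 206 CPM in PF cows, which gave a log2 FC of 0.59 ± 0.37. All PF cows were above all TN cows in the first 2 genes only. Of the 29 genes of ER chaperones and ER stress tested, 8 were higher and 0 lower in the PF group at an unadjusted p under 0.05 (edgeR), or 2 to 9 and 0 with 1 cow left out (3 and 0 without TN 1). With all 6 cows the shares were 27.6% higher and 0% lower, beside 2.99% and 3.89% of all genes. For the 29 together, the median log2 FC was 0.61, and with 1 cow left out it ranged from 0.41 (without TN 1) to 0.78 (without TN 3). All 29 had a log2 FC above 0, beside 48.8% of all genes. Such a share was not particular to this list. It was 100% for negative acute phase proteins and plasma carriers, 97.1% for proteasome genes and 94.8% for cytosolic ribosomal protein genes. For the 12 hepatocyte markers it was 91.7%, with a median log2 FC of 0.47, or 0.11 without TN 1. In the cytosol, *HSPA1A*, an inducible HSP70, had 60.8, 124 and 123 CPM in TN cows and 126, 301 and 216 CPM in PF cows, which gave a log2 FC of 1.05 ± 0.39. *DNAJA1*, its co-chaperone, had 18.6, 45.2 and 36.3 CPM in TN cows and 57.5, 103 and 48.7 CPM in PF cows, which gave a log2 FC of 1.06 ± 0.37. PF cows exceeded TN cows in both, by little in *HSPA1A*. Of the 34 heat shock proteins and cytosolic chaperones tested, 3 were higher and 1 lower in the PF group at an unadjusted p under 0.05 (edgeR), or 0 to 5 and 0 to 2 with 1 cow left out (1 and 2 without TN 1). With all 6 cows the shares were 8.82% higher and 2.94% lower, beside 2.99% and 3.89% of all genes. For the 34 together, the median log2 FC was 0.27, and with 1 cow left out it ranged from 0.10 (without PF 2) to 0.39 (without TN 3), and was 0.16 without TN 1.

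Heparan sulfate proteoglycans of the cell surface included genes at higher levels in PF cows. *GPC3*, glypican 3, lay without overlap at 33, 116 and 124 CPM in TN cows and 401, 160.3 and 449.9 CPM in PF cows (95% interval of the log2 FC 0.74 to 3.04), and *SDC1*, syndecan 1, which binds remnant lipoproteins in liver, at 19.5, 40.6 and 31.6 CPM in TN cows and 65.6, 72.8 and 66.8 CPM in PF cows (95% interval of the log2 FC 0.52 to 1.79). *SDC4*, syndecan 4, had 91.6, 216 and 200.3 CPM in TN cows and 293, 357 and 265 CPM in PF cows, which gave a log2 FC of 0.84 ± 0.37. The first 2 were DEGs, but with 1 cow left out *GPC3* was called in each of the 6 fits and *SDC1* in 1. Of the 21 heparan sulfate proteoglycans and matrix genes tested, 3 were higher and 0 lower in the PF group at an unadjusted p under 0.05 (edgeR), or 2 to 4 and 0 to 1 with 1 cow left out (3 and 0 without TN 1). With all 6 cows the shares were 14.3% higher and 0% lower, beside 2.99% and 3.89% of all genes. For the 21 together, the median log2 FC was 0.22, and with 1 cow left out it ranged from 0.19 (without TN 1) to 0.56 (without TN 2). The 3 higher genes were those named. *DDIT4*, which restrains mTORC1, had 121, 41.4 and 44.6 CPM in TN cows and 24.6, 21.4 and 26.4 CPM in PF cows, which gave a log2 FC of -1.54 ± 0.40, or a log2 FC of -0.83 without TN 1. Of the 27 genes of the ATF4 stress response tested, 2 were higher and 3 lower in the PF group at an unadjusted p under 0.05 (edgeR), or 0 to 3 and 2 to 4 with 1 cow left out (1 and 2 without TN 1). With all 6 cows the shares were 7.41% higher and 11.1% lower, beside 2.99% and 3.89% of all genes. For the 27 together, the median log2 FC was 0.00, and with 1 cow left out it ranged from -0.10 (without TN 1) to 0.14 (without PF 3). *DDIT4* was the DEG of the list, and the 2 higher members were *FGF21* and *PYCR1*. *PYCR1*, an enzyme of proline synthesis, had 0.615, 2.72 and 2.09 CPM in TN cows and 3.0, 7.8 and 4.4 CPM in PF cows, which gave a log2 FC of 1.49 ± 0.58, with no overlap. *SESN2* and *DDIT3*, other targets of ATF4, had log2 FCs of -0.80 ± 0.30 and -0.73 ± 0.27, without overlap. *PYCR1*, *SESN2* and *DDIT3* were not DEGs. *ULK1*, the kinase that starts autophagy, had 316, 143 and 227 CPM in TN cows and 108, 83.4 and 149 CPM in PF cows, which gave a log2 FC of -1.03 ± 0.37.

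Of the 77 cytosolic ribosomal protein genes tested, 2 were higher and 0 lower in the PF group at an unadjusted p under 0.05 (edgeR), or 0 to 2 and 0 with 1 cow left out (2 and 0 without TN 1). The share higher was 2.6%, no more than the 2.99% of all genes. For the 77 together, the median log2 FC was 0.35, and with 1 cow left out it ranged from 0.15 (without TN 1) to 0.48 (without TN 3). The 2 were *RPSA*, with 335, 401 and 442 CPM in TN cows and 710.5, 683 and 726 CPM in PF cows, which gave a log2 FC of 0.84 ± 0.32 (DESeq2 FDR 0.099), and *RPS14*, with 279.9, 539 and 547 CPM in TN cows and 752, 851 and 809 CPM in PF cows, which gave a log2 FC of 0.81 ± 0.36. Ribosomal protein genes have many processed copies in the genome, so their counts are uncertain. Of the 34 proteasome genes tested, 1 was higher and 0 lower in the PF group at an unadjusted p under 0.05 (edgeR), or 0 to 5 and 0 with 1 cow left out (1 and 0 without TN 1). The share higher was 2.94%, no more than the 2.99% of all genes. For the 34 together, the median log2 FC was 0.42, and with 1 cow left out it ranged from 0.22 (without TN 1) to 0.59 (without TN 2). That gene was *PSMC4*, an ATPase of the regulatory particle, with 29.2, 42.4 and 48.2 CPM in TN cows and 75.8, 88 and 50.8 CPM in PF cows, which gave a log2 FC of 0.83 ± 0.29. Of the 33 cell cycle genes tested, 0 were higher and 5 lower in the PF group at an unadjusted p under 0.05 (edgeR), or 0 to 1 and 2 to 4 with 1 cow left out (1 and 2 without TN 1). With all 6 cows the shares were 0% higher and 15.2% lower, beside 2.99% and 3.89% of all genes. For the 33 together, the median log2 FC was -0.35, and with 1 cow left out it ranged from -0.45 (without TN 3) to 0.01 (without TN 2), and was -0.41 without TN 1. *CCNA2*, cyclin A2, had 2.46, 3.22 and 2.63 CPM in TN cows and 0.646, 0.561 and 1.02 CPM in PF cows, which gave a log2 FC of -1.89 ± 0.60. *MKI67*, the proliferation antigen Ki-67, had 6.06, 3.84 and 2.98 CPM in TN cows and 0.822, 2.64 and 1.43 CPM in PF cows, which gave a log2 FC of -1.41 ± 0.54. Both are at a few CPM, with no overlap, and neither was a DEG. Of the 46 genes of autophagy and lysosome tested, 1 was higher and 1 lower in the PF group at an unadjusted p under 0.05 (edgeR), or 0 to 2 and 0 to 2 with 1 cow left out (0 and 1 without TN 1). The shares were 2.17% higher and 2.17% lower, below the 2.99% and 3.89% of all genes. For the 46 together, the median log2 FC was 0.14, and with 1 cow left out it ranged from -0.00 (without TN 1) to 0.28 (without TN 2).

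**Figure D5:**
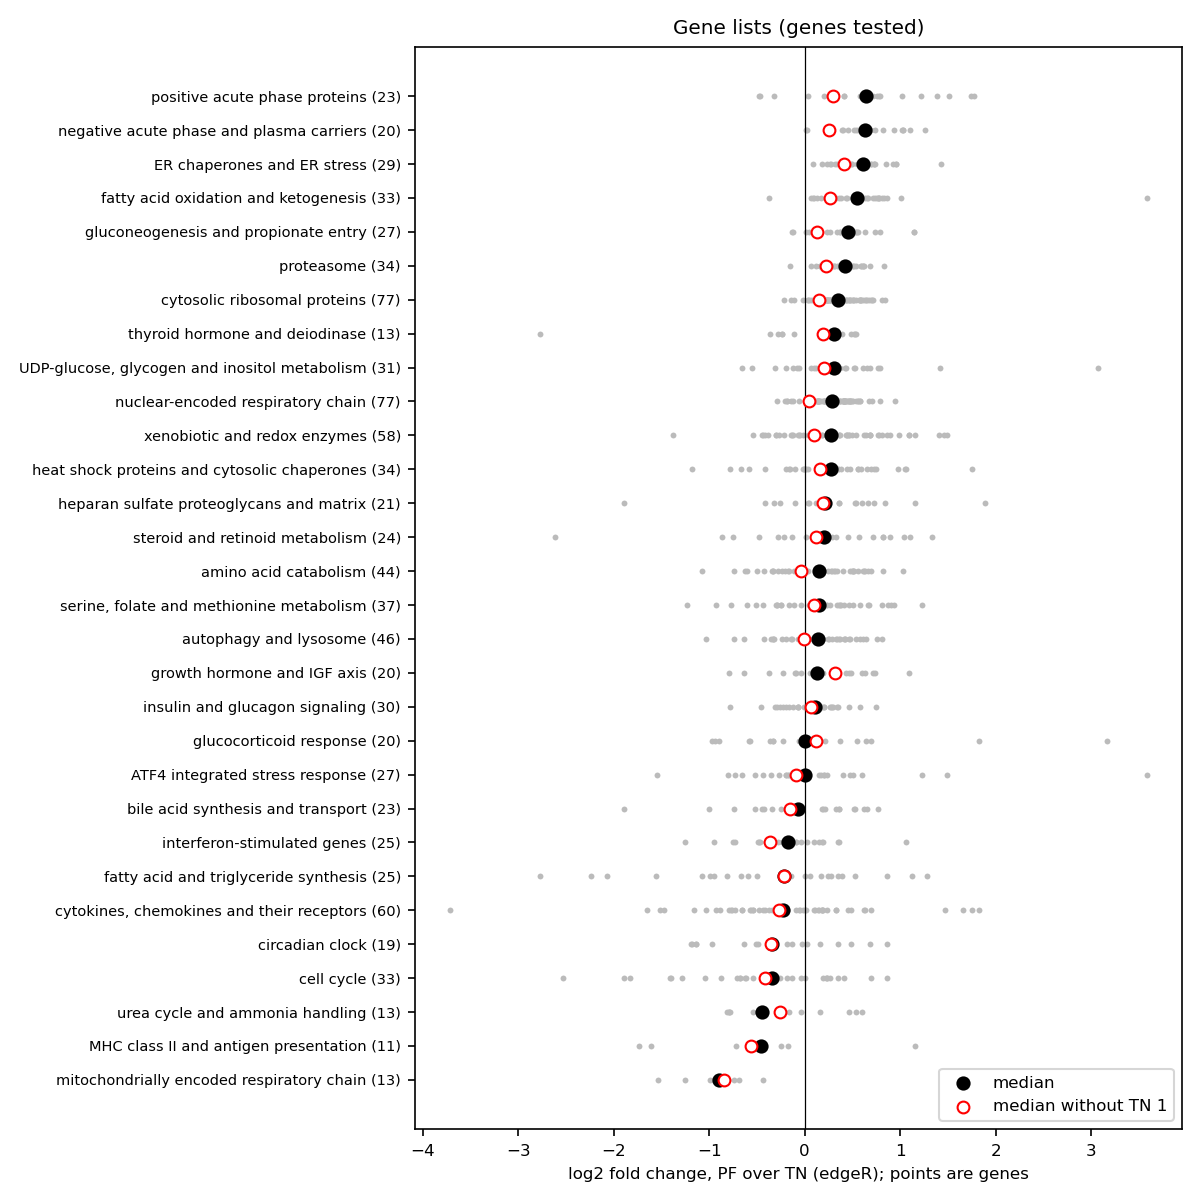
The log2 FC of PF over TN (x axis, edgeR) for the tested genes of 30 gene lists (grey points, marker lists not drawn), with the list median (black) and the median without TN 1 (open red), lists ordered by their median. Of the lists drawn, the mitochondrially encoded genes have the lowest median, -0.90, and the medians of plasma proteins, gluconeogenesis and fatty acid oxidation move toward 0 without TN 1.

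Markers of other cells were checked as a list. In bulk tissue, fewer cells of a type and less RNA per cell cannot be told apart. The 12 Kupffer cell and macrophage markers summed to 1628 to 3749.8 CPM in TN and 1454 to 2273 CPM in PF cows, with 10 of 12 below 0 and a median log2 FC of -0.49. Without 1 cow that median ranged from -0.73 (without TN 1) to -0.05 (without TN 2, which had the highest sum). *CSF1R*, the receptor that macrophages depend on, had 56.6, 104 and 63.1 CPM in TN cows and 38.8, 53.4 and 50.0 CPM in PF cows, which gave a log2 FC of -0.66 ± 0.29. The 15 lymphocyte markers summed to 264 to 285 CPM in TN and 186 to 266 CPM in PF cows, and 1 of them was lower at an unadjusted p under 0.05. Of the 15, 12 were below 0, beside 51.2% of all genes, and their median log2 FC was -0.31. Without 1 cow it ranged from -0.45 (without PF 1) to -0.13 (without PF 3). Sinusoidal endothelium, stellate cell, bile duct, neutrophil and adipocyte sums overlapped between the groups. *SPP1*, a bile duct marker, had 0.746, 108 and 1.01 CPM in TN cows and 0.411, 1.4 and 1.94 CPM in PF cows, which gave a log2 FC of -4.85 ± 1.53, a value set by TN 2 alone. The part of these cells in the lower cytokine and cell cycle genes was not tested.

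*MYOM1*, which encodes the sarcomere protein myomesin 1, was among the genes with the smallest FDR, with 53.2, 106 and 56.9 CPM in TN cows and 15.9, 7.35 and 7.06 CPM in PF cows, which gave a log2 FC of -2.84 ± 0.40, a 95% interval of -3.71 to -1.97 and an FDR of 0.148 (edgeR). Every TN cow had more than every PF cow. Among the 24 skeletal muscle markers only 6 were tested. The sum of the list was 63.2 to 111 CPM in TN and 11.7 to 25.6 CPM in PF cows, most of it *MYOM1*. The muscle-defining genes *ACTA1*, *MYH1*, *MYH2*, *MYH7*, *MYL2* and *TNNC1* were at 0 counts in all 6 libraries. *HBB*, a globin gene of red blood cells, had 7.68, 3.22 and 22.4 CPM in TN cows and 0, 2.13 and 2.05 CPM in PF cows, which gave a log2 FC of -2.99 ± 0.93. *AHSP*, the only other erythrocyte marker tested, had a log2 FC of 0.15, on the other side of 0. It had at most 18 counts in a library. The erythrocyte markers *HBA1*, *SLC4A1* and *CA1* were at 0 in all 6. The sum of the erythrocyte list was 4.15 to 23.2 CPM in TN and 0.587 to 3.33 CPM in PF cows, and its part in the other results was not tested.

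Several leading genes belong to none of the lists. Those chosen by smallest edgeR p were taken only from genes without overlap. For them, here and elsewhere, the lack of overlap followed from that choice. On the lower side, *PLCD4*, a phospholipase C, had 23.9, 17.9 and 33.4 CPM in TN cows and 6.05, 5.44 and 8.95 CPM in PF cows, which gave a log2 FC of -1.89 ± 0.32. *FBXO44*, a substrate adaptor of a ubiquitin ligase, had 193, 74.3 and 136 CPM in TN cows and 33.4, 47.2 and 37.2 CPM in PF cows, which gave a log2 FC of -1.79 ± 0.37. Neither had overlapping groups. *TSKU*, a secreted leucine-rich protein of liver, had 452, 316 and 596 CPM in TN cows and 179, 145 and 129 CPM in PF cows, which gave a log2 FC of -1.60 ± 0.35. *NETO2*, an accessory subunit of kainate receptors, had 11.5, 10.6 and 11.5 CPM in TN cows and 4.93, 3.03 and 2.92 CPM in PF cows, which gave a log2 FC of -1.64 ± 0.33. *PRAP1*, a proline-rich secreted protein, had 432, 20.7 and 108 CPM in TN cows and 3.35, 12.1 and 9.36 CPM in PF cows, which gave a log2 FC of -4.53 ± 0.92, and without TN 1 the log2 FC was -2.95. The TN 1 value was far above those of the other cows. *ECEL1*, a membrane metalloprotease, had 10.8, 3.72 and 5.73 CPM in TN cows and 0.117, 1.07 and 0.665 CPM in PF cows, which gave a log2 FC of -3.45 ± 0.68. *SOD3*, the extracellular superoxide dismutase, had 13.3, 31.7 and 36.6 CPM in TN cows and 3.64, 10.7 and 7.16 CPM in PF cows, which gave a log2 FC of -1.93 ± 0.44. *RASEF*, a Rab-family GTPase with EF hands, had 2.46, 4.09 and 2.45 CPM in TN cows and 0.294, 0.617 and 0.256 CPM in PF cows, which gave a log2 FC of -2.94 ± 0.67. The uncharacterized *LOC107132300* had 11.9, 10.3 and 8.35 CPM in TN cows and 2.0, 2.24 and 2.35 CPM in PF cows, which gave a log2 FC of -2.22 ± 0.33, with narrow ranges in both groups, and *C18H19orf18* had 11.7, 2.79 and 5.61 CPM in TN cows and 0.646, 0.617 and 0.819 CPM in PF cows, which gave a log2 FC of -3.28 ± 0.58. Their edgeR FDR lay between 0.148 for *LOC107132300* and 0.523 for *RASEF*. In PF cows *ECEL1*, *RASEF* and *C18H19orf18* were at 1.07 CPM or less. *ECEL1* in PF 1 lay below the 0.176 CPM that a count of 0 allows there. The log2 FCs of these 3 genes therefore depend on few counts.

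On the higher side, *MGC127133*, an uncharacterized gene, had 1.36, 3.78 and 2.63 CPM in TN cows and 55.8, 7.74 and 20.4 CPM in PF cows, which gave a log2 FC of 3.45 ± 0.64, with PF 1 far above the other PF cows. *CA13*, a cytosolic carbonic anhydrase, had 6.45, 4.09 and 7.76 CPM in TN cows and 18.9, 19.1 and 13 CPM in PF cows, which gave a log2 FC of 1.46 ± 0.32. *ANO6*, a phospholipid scramblase, had 13.8, 38 and 21.4 CPM in TN cows and 80.5, 71.3 and 51.1 CPM in PF cows, which gave a log2 FC of 1.47 ± 0.36. Both were DEGs without overlap. *CL43*, a bovine collectin of innate defense, had 149, 146 and 226 CPM in TN cows and 240.1, 1054 and 599 CPM in PF cows, which gave a log2 FC of 1.85 ± 0.49. *NDRG2*, a stress-responsive gene of the NDRG family, had 191, 293 and 293 CPM in TN cows and 601, 426 and 570.1 CPM in PF cows, which gave a log2 FC of 1.03 ± 0.34. *TPH1*, which makes the serotonin precursor from tryptophan, had 16.2, 46.2 and 33.2 CPM in TN cows and 91.9, 59 and 118 CPM in PF cows, which gave a log2 FC of 1.49 ± 0.39. In these 3 every PF cow exceeded every TN cow. DESeq2 also called 2 genes that edgeR did not test because of low counts. *OR2AE1*, an olfactory receptor gene, had 5, 11 and 94 counts in PF cows and 0 in all 3 TN cows, and *GPR84*, a receptor for medium-chain fatty acids, had 64, 5 and 7 counts in TN cows and 0, 0 and 1 in PF cows. In each, 1 cow held most of the counts.

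The levels of HS cows, whose intake the PF cows matched, are given beside those of PF cows, and a comparison of HS with PF shares the PF cows with the one above. Of 14510 genes, edgeR called 4 between HS and PF (0.0276%). For *ACACA*, HS cows had 32.3, 25.1 and 38.4 CPM and the log2 FC of HS over PF was 0.13 ± 0.33 (FDR 1.00, edgeR). *ANGPTL8* had 78.3, 159 and 184 CPM in HS cows, at 0.18 ± 0.37 (FDR 1.00, edgeR), and *UGP2* had 106, 107 and 115 CPM, at -0.26 ± 0.24 (FDR 1.00, edgeR). For these 3 genes HS and PF cows overlapped or were close. *MIOX* had 3.6, 1.76 and 1.69 CPM in HS cows, each below each PF cow, at -3.12 ± 0.56 (FDR 0.143, edgeR). *IDH1* had 136, 122 and 174 CPM, also below each PF cow, at -1.01 ± 0.26 (FDR 0.408, edgeR). *LPIN1* had 87.6, 72.3 and 84.5 CPM, above each PF cow, at 1.10 ± 0.22 (FDR 0.226, edgeR).

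*CYP11A1* had 122, 117 and 141 CPM in HS cows, at 3.14 ± 0.29 (FDR 0.00269, edgeR), and *SEC14L3* had 2.6, 4.75 and 4.58 CPM, at -2.97 ± 0.30 (FDR 0.00294, edgeR). Both were DEGs between HS and PF by edgeR. *DIO1* was called as well, with 67.8, 52.6 and 60.0 CPM in HS cows, at -2.83 ± 0.28 (FDR 0.00294, edgeR). The HS values of *CYP11A1* lay inside the range of the TN cows, whereas those of *SEC14L3* lay below all TN cows.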

How the data were processed

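Poly(A) RNA libraries from 9 cow livers were sequenced by the authors. The deposited values are raw read counts that the authors made per gene, with no normalization. Reads were cleaned with fastp 0.23.2, aligned to ARS-UCD1.2 with STAR 2.7.9a and counted with featureCounts 2.0.3. The annotation release and the strand and multi-mapping settings are not given in the sources used here. All 9 columns were mapped to labels.

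The 3 PF and 3 TN libraries were fitted with edgeR 4.0.16 in R 4.3.3 (filterByExpr, TMM, quasi-likelihood F test, Benjamini-Hochberg over all genes tested). DEGs needed a fold change above 1.5 at an FDR below 0.1. DESeq2 1.42.0, the study's tool, and limma-voom (limma 3.58.1) were alternatives, beside RLE size factors, other filters, mitochondrial genes left out, all 9 libraries in 1 fit, a replicate block and each cow left out. 95% intervals came from the edgeR fit. The p-values measure the spread between cows, and intervals and limits of shares cover counting error only. The 31 gene lists and 10 cell type marker lists were written by hand, and the tests were tested on simulated data.

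Genes named were drawn from the members of the lists (mainly up to 6 with the smallest edgeR p in each), the 15 higher and 15 lower genes without overlap of smallest edgeR p, the DESeq2 DEGs, of which 60 of the 91 are named, and genes that the study names for this comparison. Rate-limiting or textbook members of lists outside the first 6 were named for their function. The members and lists were chosen with earlier results of these data known. RefSeq of ARS-UCD2.0, another build, served only for symbols (24366 of 28786 matched) and overlapping genes, and no coordinates or sequences are given. Members of a list that are not named are in its counts, and 1 list is not reported here.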

Additional observations from a re-analysis of the deposited data

How the results depend on the processing

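Each group had 3 cows, so the number of genes called depended on the test and on single cows. By edgeR, the number of DEGs was 0 with RLE size factors, without mitochondrial genes, with all 9 libraries in 1 fit, at an FDR under 0.05 and with glmTreat, and 0 by limma-voom. It was 136 without a filter on low counts, 1 with at least 10 counts in every library (*MYOM1*) and 0 to 14 with 1 cow left out, the 14 being without TN 2. DESeq2 called 91 genes. With each cow left out, a choice made after seeing the data, it called 65 without PF 1, 64 without PF 2, 149 without PF 3, 59 without TN 1, 342 without TN 2 and 61 without TN 3. Genes with an unadjusted p under 0.05 by edgeR numbered 1003, and 1512 without the filter, of which 675 were higher. With 1 cow left out they ranged from 647 to 1505, the higher ones from 286 to 702 and the lower ones from 361 to 953.

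Deviations of cows with the same replicate number had correlations of -0.03, 0.18 and -0.03, inside the range of -0.27 to 0.24 for different numbers. With 3 cows per group, these values cannot show whether the numbers pair the cows. With the replicate block edgeR called 1 gene (*MIOX*), and DESeq2, in an alternative chosen after seeing the data, 197. For the mitochondrial share the block gave the same difference of -10.8 percentage points (exact sign permutation test, p = 0.25, the smallest it can give).

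Of the genes named, 6 changed sign when 1 cow was left out. Their log2 FC ranged from -1.41 to 0.36 for *SCD*, -0.33 to 0.41 for *PDK4*, -0.16 to 0.27 for *PCK1*, -0.27 to 0.0504 for *G6PC*, -2.14 to 0.14 for *CXCL10* and -5.42 to 0.50 for *SPP1*. The cause of these shifts was not tested.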
